A study of Mus musculus with 12 samples.

Results

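The collagen genes are the protein-coding genes of the count table whose symbol has the form Col, a type number, a and a chain number, with 1 row per Ensembl gene. The rule found 44 genes among 40594, and it used names only, no measured value. The samples are total RNA of adult mouse ventricles, left (LV) or right (RV), in 4 groups of 3 libraries: control LV, control RV, Wnt LOF LV and Wnt LOF RV. Wnt LOF stands for a loss of function in Wnt signalling, and the series title asks how Wnt-dependent programmes and arrhythmia differ between the ventricles. The labels give no strain, no targeted gene, no driver line and no word on pooling, so what limits the Wnt LOF hearts as a model is not given in the sources used here. Nor do they tie any library to an animal, so p-values measure the spread between libraries. Total counts ran from 13274922 to 19173391 per library. Of the 44 collagen genes, 37 passed the filter on low counts and were tested among 15494 genes.

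Collagens are extracellular proteins built from chains that wind into a triple helix. Fibrillar collagens (types I, II, III, V, XI, XXIV and XXVII) form the load-bearing fibres, and type IV chains form the sheet-like network of the basement membrane that surrounds cardiomyocytes and capillaries. Type VI collagen makes beaded microfibrils close to cells, and the fibril-associated collagens (FACIT) decorate fibres. In the heart, fibroblasts are a main source of fibrillar collagen, while vessel wall cells contribute much of type IV. Collagen accumulates when the heart scars, and the spacing of muscle fibres by collagen is one of the features studied in arrhythmia. The level of an mRNA does not measure the protein laid down in the matrix.

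Some libraries stood apart, and the main counts and the genes that turn on them are also given without the Wnt LOF libraries numbered 1 or control LV 2. Wif1, a secreted Wnt inhibitor, was at 2.62 to 3.17 CPM (the count relative to the size of its library, scaled by TMM factors) in control LV and at 12 to 18.4 CPM in control RV. The library labelled Wnt LOF LV 1 had 13.5 CPM and the library labelled Wnt LOF RV 1 had 2.55 CPM, so each lay on the side of the other ventricle. Aqp4 gave the same picture (31.2 and 8.1 CPM, with 6.88 to 8.53 in control LV and 23.5 to 33.9 in control RV). For Kcnd2, Wnt LOF LV 1 (91.1 CPM) lay within control RV (83.2 to 95.7 CPM). Wnt LOF RV 1 (54.1 CPM) lay between that range and control LV (31.2 to 44.7 CPM), as did Wnt LOF RV 3 (59.4 CPM). Over 9 autosomal genes that were either on or off in a library, the library labelled control LV 2 shared its state with both Wnt LOF libraries numbered 1 in 9 of 9. It shared 8 with both Wnt LOF libraries numbered 2 and at most 5 with any control library. Control libraries of different numbers shared from 1 (control LV 1 and control LV 3) to 8 (control LV 1 and control RV 2). With control RV 2, the library of its own number, control LV 2 shared 4, while control LV 1 and control RV 1 shared 9. Ddx3y, a Y-linked gene, was above 1 CPM only in the library numbered 3 of each group. Ctnnb1, which encodes beta-catenin, overlapped between the genotypes in the LV (425 to 598 CPM in control and 395 to 532 in Wnt LOF) and was lower in all 3 Wnt LOF RV libraries (352 to 453 CPM) than in control RV (510.1 to 559). The library labelled Wnt LOF RV 3 also held atrial muscle mRNA, with Myl7 at 10.2 CPM, where every other library had at most 1.26.

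The collagen mRNA of these ventricles was mostly type IV and type III. Over the 12 libraries, Col4a1 averaged 884 CPM, Col4a2 621 CPM and Col3a1 536 CPM. Col1a2, a chain of type I collagen, followed at 215 CPM, and Col6a1, a chain of type VI, at 169 CPM. The other 7 of the top 12 were Col15a1 (127 CPM), Col5a1 (123), Col6a3 (111), Col4a5 (110.4), Col6a2 (105), Col1a1 (82.9) and Col5a2 (75.1). Between genes, only a level per length is comparable. Per kilobase of the longest principal transcript, Col4a1 stayed first at 134 RPKM, Col3a1 (96.3 RPKM) and Col4a2 (96.2 RPKM) were nearly level, and Col6a1 (41.3 RPKM) and Col1a2 (40.1 RPKM) came next. With the length of all annotated exons together in place of the principal transcript, the values of Col1a2, Col6a2 and Col3a1 moved by more than 1.5 times, so their place in the order rests on the transcript chosen.

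**Figure D1:**
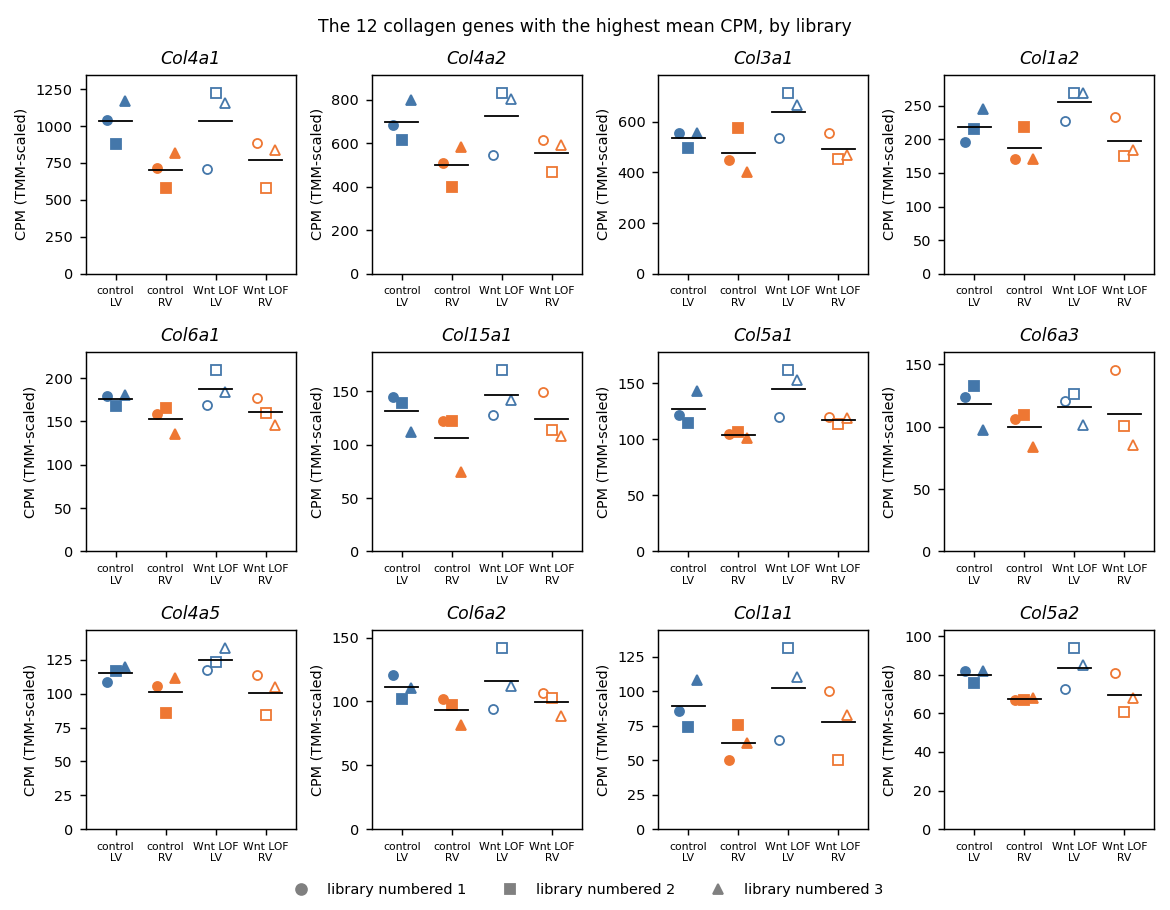
Each panel plots the TMM-scaled CPM (y axis, from 0) of 1 of the 12 collagen genes with the highest mean CPM in every library of the 4 groups (x axis), with the library number as the symbol and the group mean as a line. Col4a1 and Col4a2 are lower in all 3 control RV libraries than in all 3 control LV libraries, and in the Wnt LOF groups the library numbered 1 is the lowest LV library and the highest RV library for both genes.

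By class, the 6 basement membrane genes made up 48.3% of all collagen CPM, the 11 fibrillar genes 31.6% and the 6 type VI genes 11.8%. The multiplexins Col15a1 and Col18a1, which sit at basement membranes, made up 4.32%, the 9 FACIT genes 2.14% and the 3 short-chain genes 1.33%. The 4 transmembrane collagens (Col13a1, Col17a1, Col23a1 and Col25a1) and the group of Col7a1, Col26a1 and Col28a1 made up 0.351% and 0.212%. As shares of summed RPKM, the basement membrane genes made up 43.8%, the fibrillar genes 32.1% and the type VI genes 14.4%. On that scale the multiplexins made up 5.05% and the FACIT genes 2.30%. The 7 genes that were too low to test were Col24a1, Col6a5, Col19a1, Col11a1, Col2a1, Col6a4 and Col9a1. Of these, Col9a1 had no count in any of the 12 libraries, which allows a level of up to 0.154 to 0.227 CPM (3 counts, counting error only), and Col2a1, the main cartilage collagen, reached at most 0.151 CPM. The cartilage gene Acan ranged from 0 to 0.666 CPM.

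The summed level of collagen mRNA was lower in the RV than in the LV of control hearts, although 12 of the 37 tested genes were above 0. Summed over the 44 genes, the level was 3736, 3407 and 3994 CPM in the control LV libraries numbered 1, 2 and 3 and 2917, 2892 and 2903 CPM in the control RV libraries. The groups did not overlap: the mean was 3712 ± 294 CPM (SD, n = 3) for LV libraries and 2904 ± 12.9 CPM (SD, n = 3) for RV libraries, a ratio of 0.782. The small SD of the control RV sum does not hold for its parts. Its basement membrane sum had an SD of 224 CPM and its fibrillar sum an SD of 134 CPM. With total counts in place of TMM factors the control RV sum was 2876.2 ± 75.8 CPM (SD, n = 3). In Wnt LOF hearts the sums were 3216, 4519 and 4208 CPM in the LV and 3568, 2715 and 3120.0 CPM in the RV. These groups overlapped, since the library labelled Wnt LOF LV 1 was the lowest of its group and the library labelled Wnt LOF RV 1 the highest of its own. The ratio of the Wnt LOF means was 0.787. Without the libraries numbered 1 the Wnt LOF sums did not overlap, but only 2 libraries per ventricle were then left, so this is weaker than the control result.

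The basement membrane class carried most of the control difference. Its sum was 1879.6, 1656 and 2140.3 CPM in control LV and 1367, 1104 and 1549 CPM in control RV, with no overlap and a ratio of means of 0.708. The fibrillar sum was 1100.1, 1035 and 1180.4 CPM in control LV and 887, 1093 and 841 CPM in control RV, and it overlapped through the control RV library numbered 2. The short-chain sum was 52, 50.7 and 57.1 CPM against 30.9, 32.9 and 38.1 CPM, without overlap. The type VI sum did not overlap either, at 437, 419.7 and 407 CPM in the LV and 385, 395 and 317 CPM in the RV. The FACIT sum had no such order: 76.4, 69 and 53.8 CPM in the LV and 83, 103 and 48.1 CPM in the RV, a ratio of means of 1.18.

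**Figure D2:**
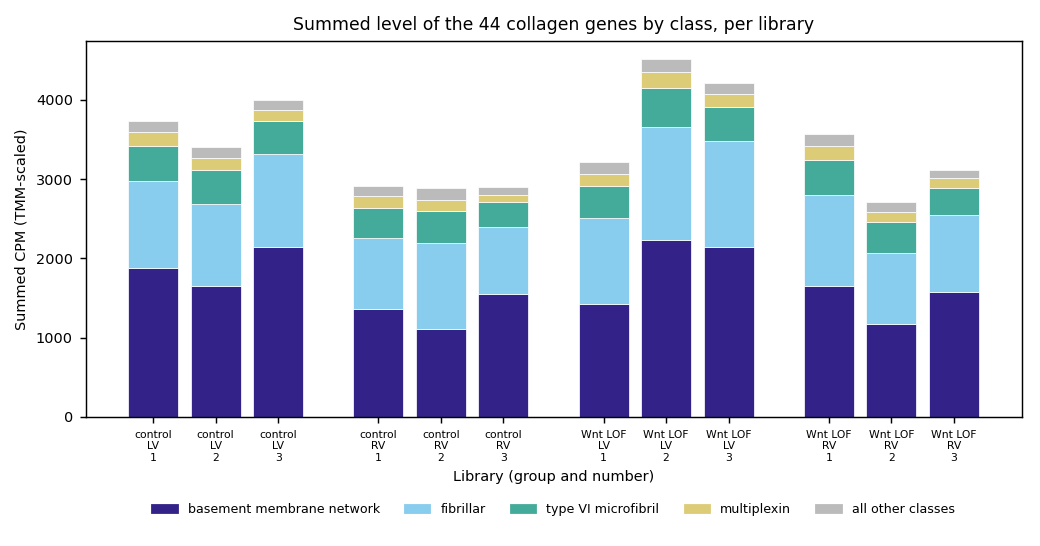
Stacked bars give the summed TMM-scaled CPM (y axis, from 0) of the 44 collagen genes in each of the 12 libraries (x axis, group and number), split by collagen class. The 3 control RV bars stand between 2892 and 2917 CPM, below every control LV bar, while in the Wnt LOF groups the library numbered 1 has the lowest LV bar and the highest RV bar.

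Gene by gene, the comparison of RV with LV in control hearts asked which collagens account for that difference. Of the 37 tested genes, 25 had a log2 fold change below 0 (49% of all 15494 genes did), and the median was -0.19, against 0.00 for all genes. In the planned edgeR fit no collagen gene was called at an adjusted p under 0.05 (smallest adjusted p 0.921), and no gene of any kind was (0%). At an unadjusted p under 0.05, edgeR found 9 collagen genes, all lower in the RV, where 2.5% of all genes passed as lower, 2.38% as higher and 4.88% in either direction. DESeq2 also found 9 (4.41% of all genes). In 9 collagen genes every RV library was below every LV library (5.92% of all genes): Col4a1, Col4a2, Col4a3, Col4a4, Col5a1, Col5a2, Col5a3, Col6a1 and Col8a1. Only Col13a1 was above in every RV library (6.68%).

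In the basement membrane class, the type IV chains, all 6 genes were below 0 (median -0.39). Col4a1 encodes a chain of the most widespread type IV network and had 1042, 880.0 and 1171 CPM in the control LV libraries and 718, 578 and 816 CPM in the control RV libraries. The RV libraries were all lower, with a log2 fold change of -0.55 (SE 0.22), a ratio of 0.683. Its partner chain Col4a2 had 683, 617 and 798 CPM in control LV and 509, 401 and 585 CPM in control RV. Again no RV library reached an LV library, and the log2 fold change was -0.49 (SE 0.18). Col4a3 and Col4a4, chains of the type IV network best known from the kidney glomerulus, showed the same order at far lower levels. Col4a3 had 13.6, 12.2 and 13.6 CPM in the LV and 10.1, 9.86 and 9.13 CPM in the RV, with a log2 fold change of -0.44 (SE 0.13). Col4a4 had 29.3, 25.2 and 32.5 CPM in the LV and 19.7, 24 and 25 CPM in the RV, where the gap between the groups was only the distance from the LV library numbered 2 to the RV library numbered 3, and the log2 fold change was -0.34 (SE 0.12). Col4a5 overlapped, at 108, 117 and 119 CPM in the LV and 106, 85.6 and 112 CPM in the RV (log2 fold change -0.19 (SE 0.12)). Col4a6 was at 3.08 to 5.49 CPM over all libraries and had a log2 fold change of -0.16 (SE 0.24).

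Among the fibrillar genes, 7 of 8 tested were below 0 (median -0.24), and those whose groups did not overlap were the type V chains, which nucleate and thin the fibres of types I and III. Col5a3 had 29.2, 30.7 and 26.1 CPM in control LV and 19.9, 19.8 and 18.5 CPM in control RV. The RV libraries lay within 18.5 to 19.9 CPM, well below the lowest LV library, and the log2 fold change of -0.56 (SE 0.15) had the smallest unadjusted p of any collagen gene in this comparison (edgeR p 0.00276, adjusted p 0.921). Col5a1 had 122, 115 and 143 CPM in the LV and 104, 106 and 101 CPM in the RV (log2 fold change -0.28 (SE 0.11)). Col5a2 had 81.8, 75.7 and 81.9 CPM in the LV and 66.8, 67 and 67.7 CPM in the RV (log2 fold change -0.25 (SE 0.11)). Both were lower in every RV library, by less than Col5a3. The main fibre-forming chains were less regular. Col1a1 had 85.3, 74.4 and 108 CPM in the LV and 50.3, 75.6 and 62.3 CPM in the RV, and the RV library numbered 2 lay above the LV library of that number (log2 fold change -0.51 (SE 0.30)). Col1a2 had 196, 216 and 245 CPM against 171, 219 and 171 CPM (log2 fold change -0.23 (SE 0.13)). Col3a1 had 557, 497 and 555 CPM against 450.1, 575 and 402 CPM (log2 fold change -0.17 (SE 0.14)). For both, the control RV library numbered 2 was the high one and made the groups overlap.

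Col8a1, a short-chain collagen found in vessel walls and the endothelial matrix, had the largest difference among the non-overlapping genes. It stood at 45.7, 44.4 and 51.6 CPM in the control LV libraries and at 25.2, 25.5 and 31.7 CPM in the control RV libraries, with a log2 fold change of -0.78 (SE 0.30) and a ratio of 0.581. The type VI chain Col6a1 had 179, 168 and 181 CPM in the LV and 159, 165 and 135 CPM in the RV, where the gap between the groups was small (log2 fold change -0.20 (SE 0.10)). Col6a2 had 121, 102 and 111 CPM against 102, 96.9 and 81.7 CPM; the groups overlapped by less than 1 CPM (log2 fold change -0.24 (SE 0.14)). Col6a3 had 124, 133 and 97.2 CPM against 106, 109 and 83.4 CPM (log2 fold change -0.24 (SE 0.19)). The multiplexin Col15a1 had 144, 139 and 111 CPM against 122, 122 and 74.5 CPM (log2 fold change -0.31 (SE 0.19)). Col6a3 and Col15a1 overlapped between the ventricles, but the RV library was the lower of the 2 in each of the 3 library numbers. Col13a1, a transmembrane collagen of cell contacts, went the other way at low level, with 2.16, 2.32 and 2.42 CPM in the LV and 3.06, 2.65 and 2.93 CPM in the RV (log2 fold change 0.33 (SE 0.21)). Among the FACIT genes, 5 of 7 tested were above 0, with a class median of 0.18, and Col9a2, at 0.198 to 1.37 CPM over all libraries, was the lowest at -1.21 (SE 0.46).

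**Figure D3:**
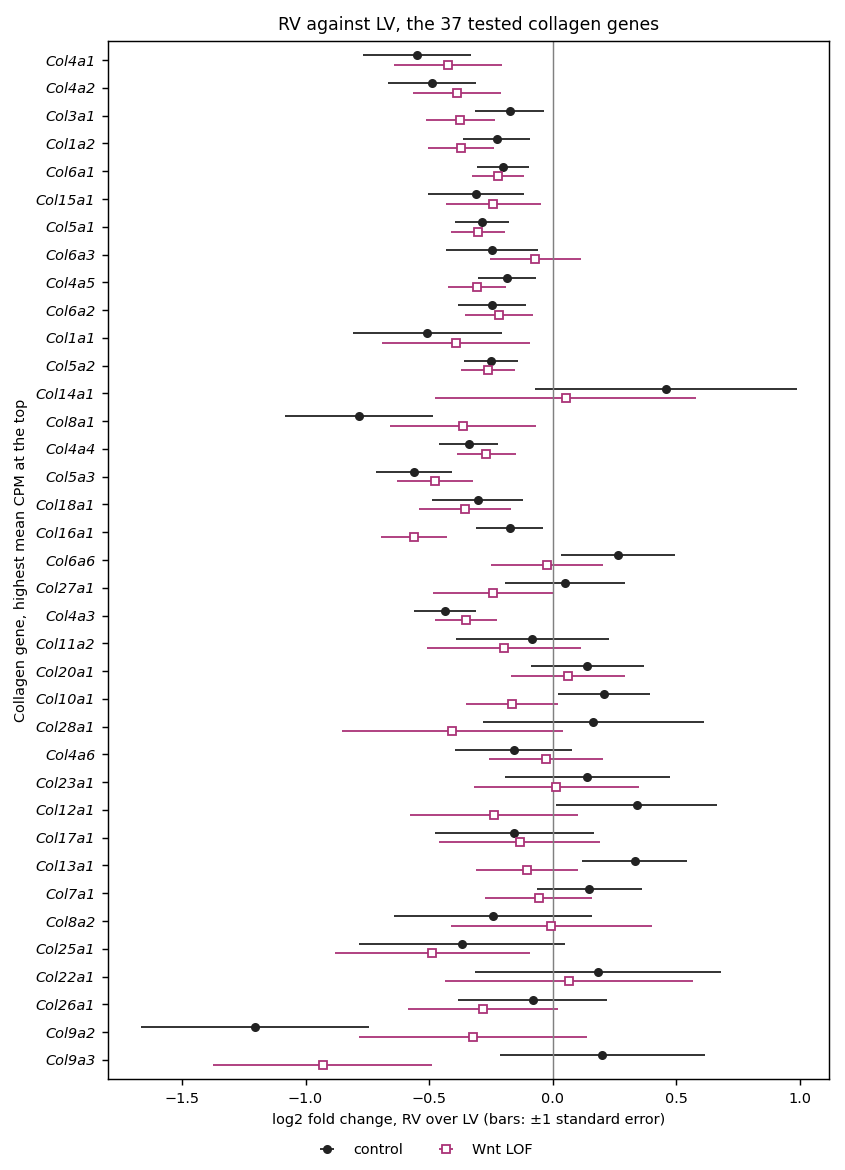
Points give the log2 fold change of RV over LV (x axis) with bars of ±1 standard error for each of the 37 tested collagen genes (y axis, highest mean CPM at the top), in control hearts (filled circles) and Wnt LOF hearts (open squares). The 12 genes at the top all lie below 0 in both genotypes. Among the low-level genes, many with wide bars, control hearts scatter on both sides. In Wnt LOF hearts most lie below 0, and 4 of all 37 lie above it, by at most 0.065. No point is called at an adjusted p under 0.05.

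The library numbers allowed a closer comparison, because libraries of the same number deviated together in both ventricles (the correlations are given with the processing). Within a number, the ratio of control RV to control LV was 0.689, 0.657 and 0.696 for Col4a1 in numbers 1, 2 and 3, 0.551, 0.574 and 0.614 for Col8a1 and 0.681, 0.647 and 0.710 for Col5a3. These ratios varied little between the numbers. For Col3a1 they were 0.808, 1.16 and 0.724 and for Col1a1 0.589, 1.02 and 0.577, with number 2 apart from the others. All 3 ratios were below 1 for 15 of the 37 tested collagen genes and for 18.1% of all genes, and the median ratio over the collagen genes was 0.863, 0.928 and 0.794.

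With the control libraries fitted alone and the number as a block, a fit added after the data were seen, edgeR called 5 collagen genes lower in the RV at an adjusted p under 0.05, where 2.19% of all 14899 genes were called. Col8a1 fell by 0.79 on the log2 scale (SE 0.08, edgeR adjusted p 4.1e-05). Col4a1 fell by 0.56 (SE 0.08, edgeR adjusted p 0.00166) and Col4a2 by 0.50 (SE 0.08, adjusted p 0.00354). Col5a3 fell by 0.56 (SE 0.09, edgeR adjusted p 0.00245) and Col15a1, with the weakest call, by 0.33 (SE 0.08, adjusted p 0.0472). These calls rest on the choice of fit: the planned block fits over all 12 libraries gave log2 fold changes of the same direction and called no collagen gene. The fit also pairs the control RV library numbered 2 with the library labelled control LV 2, although these shared only 4 of the 9 on-off states, where the other 5 LV and RV pairs of a number shared 9 of 9. Without both control libraries numbered 2 the block fit had 2 numbers left and called 4 collagen genes (0.447% of all genes). Of the 5, Col8a1, Col4a1 and Col4a2 remained (log2 fold changes -0.78, -0.53 and -0.44) and Col1a1 was added at -0.78 (SE 0.07). With the library labelled control LV 2 left out and no block, edgeR called 0 (0.00666% of all genes) and found 11 at an unadjusted p under 0.05 (6.94%).

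Of the 5 genes called in the block fit, Col5a3, Col8a1 and Col15a1 have a promoter window free of exon bases, and these windows are shown. Among them, only Col8a1 was also called without both control libraries numbered 2. Each line is the 250 bases before the start of transcription in RefSeq (GRCm38.p6), 5′ to 3′ on the strand of the gene, and capitals mark matches to any of the motifs searched. The windows are chr9:20815068-20815317 (minus strand) for Col5a3, chr16:57754738-57754987 (minus strand) for Col8a1 and chr4:47207762-47208011 (plus strand) for Col15a1.
Col5a3: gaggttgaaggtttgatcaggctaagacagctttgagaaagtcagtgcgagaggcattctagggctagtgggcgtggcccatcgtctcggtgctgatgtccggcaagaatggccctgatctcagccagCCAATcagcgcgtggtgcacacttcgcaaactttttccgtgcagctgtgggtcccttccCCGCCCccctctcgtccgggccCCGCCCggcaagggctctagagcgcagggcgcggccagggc
Col8a1: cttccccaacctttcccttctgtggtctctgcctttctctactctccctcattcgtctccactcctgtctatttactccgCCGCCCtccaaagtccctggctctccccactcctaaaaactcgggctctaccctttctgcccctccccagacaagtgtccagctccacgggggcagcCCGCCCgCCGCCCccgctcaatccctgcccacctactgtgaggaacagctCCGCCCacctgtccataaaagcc
Col15a1: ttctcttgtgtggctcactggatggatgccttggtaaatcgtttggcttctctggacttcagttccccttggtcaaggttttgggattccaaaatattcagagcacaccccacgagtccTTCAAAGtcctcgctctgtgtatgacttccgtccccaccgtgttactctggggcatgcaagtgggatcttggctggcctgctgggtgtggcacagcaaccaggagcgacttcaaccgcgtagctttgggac

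The motifs, searched on both strands, were CCAAT, the GC box GGGCGG, the TATA box TATAAA, and a TCF/LEF core of Wnt-responsive factors with its possible endings, which are the form CTTTGAA, then also the form CTTTGAT, then also the form CTTTGTA and last also the form CTTTGTT. The Col5a3 window held 1 CCAAT and 2 GC boxes with a GC content of 62.8%. The Col8a1 window held 4 GC boxes (GC content 60.8%). The Col15a1 window held 1 TCF/LEF core and no GC box (GC content 53.6%). None of the windows held TATAAA, and no motif occurred in all 3. RefSeq gave 38 windows for 35 of the 44 collagen genes, and a GC box lay in 57.9% of them, against 32.7% of all 32851 windows of that length. CCAAT lay in 34.2% against 33.8%, TATAAA in 13.2% against 12.4%, and a TCF/LEF core in 18.4% against 14.8%. A match describes the letters and not a bound site.

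In Wnt LOF hearts the collagen genes were also lower in the RV on balance. Of the 37 tested, 33 had a log2 fold change below 0 (50.2% of all genes did), including all 6 basement membrane, all 8 fibrillar and all 4 type VI genes, and the median was -0.26 against -0.00 for all genes. No collagen gene was called by edgeR (adjusted p 0.9996 for all 37), nor was any gene (0%). At an unadjusted p under 0.05, edgeR found 9, all lower in the RV, where 1.59% of all genes passed as lower, 3.22% as higher and 4.81% in either direction, and DESeq2 found 11 (4.16% of all genes). The groups did not overlap in 7 collagen genes, all lower in the RV (3.7% of all genes): Col4a3, Col4a4, Col4a5, Col5a1, Col9a3, Col16a1 and Col26a1. The 2 ventricle comparisons share no library, but they come from a common fit with a shared estimate of the spread, so their errors and p-values are not independent.

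Col16a1, a FACIT collagen, had the smallest unadjusted p. It was at 29.4, 25.8 and 21.6 CPM in the libraries labelled Wnt LOF LV 1, 2 and 3 and at 18.9, 17.7 and 15.5 CPM in those labelled Wnt LOF RV. Every RV library was lower, with a log2 fold change of -0.56 (SE 0.13) (edgeR p 0.00101, adjusted p 0.9996). Without both Wnt LOF libraries numbered 1 it was -0.51 (SE 0.15) (edgeR p 0.00619, adjusted p 0.391). The smallest p was then that of Col5a3 (edgeR p 5.7e-05, adjusted p 0.175). In control hearts Col16a1 overlapped, at 22.6, 19.5 and 18.8 CPM in the LV and 18.5, 19.8 and 15.7 CPM in the RV (log2 fold change -0.17 (SE 0.13)). Col5a3 had 29, 37 and 33.2 CPM in Wnt LOF LV and 30.5, 18.6 and 22 CPM in Wnt LOF RV, overlapping through the RV library labelled 1 (log2 fold change -0.48 (SE 0.15)). Col4a3 had 12.4, 13.8 and 15.9 CPM against 11.4, 9.62 and 11.9 CPM (log2 fold change -0.35 (SE 0.13)). Col5a1 had 120.1, 161 and 153 CPM against 119.6, 113 and 119 CPM (log2 fold change -0.30 (SE 0.11)). For both, the lowest LV library was the one labelled 1 and lay just above the highest RV library. Col4a5 had 118, 123 and 134 CPM against 114, 84.2 and 105 CPM (log2 fold change -0.31 (SE 0.12)), and Col4a4 27.5, 26.9 and 32.7 CPM against 24.2, 24.3 and 23.8 CPM (log2 fold change -0.27 (SE 0.12)). At the low end, Col26a1 had 0.829, 0.789 and 0.784 CPM against 0.610, 0.601 and 0.766 CPM (log2 fold change -0.28 (SE 0.30)) and Col9a3 0.652, 0.789 and 0.728 CPM against 0.610, 0.180 and 0.319 CPM (log2 fold change -0.93 (SE 0.44)).

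Several genes were split between library numbers. Col4a1 was at 711, 1226 and 1159 CPM in Wnt LOF LV and 886, 579.9 and 840.4 CPM in Wnt LOF RV. Its RV to LV ratios in numbers 1, 2 and 3 were 1.25, 0.473 and 0.725, so number 1 pointed the other way, and the log2 fold change over all 3 was -0.42 (SE 0.22). Col4a2 was at 547, 833 and 803 CPM against 613, 467 and 590.1 CPM (log2 fold change -0.39 (SE 0.18)), with the same order of libraries. Col1a1 was at 64.8, 131 and 110.3 CPM against 100.1, 50.3 and 82.9 CPM, and its ratios ran from 0.384 in number 2 to 1.54 in number 1. Col8a1 was at 33.1, 53.3 and 54 CPM against 54, 20.7 and 34.3 CPM, with ratios of 1.63, 0.389 and 0.636. Col3a1 was at 537, 715 and 666 CPM against 554, 454 and 471 CPM, and Col1a2 at 227, 269 and 269.6 CPM against 234, 175 and 184 CPM. Their log2 fold changes were -0.37 (SE 0.14) and -0.37 (SE 0.13). The 3 ratios were all below 1 in 9 of the 37 collagen genes and in 12.5% of all genes. In numbers 2 and 3 alone, both ratios were below 1 in 24 of the 37 and in 30.6% of all genes. Both were below 1 with a number 1 ratio above 1 in 15 of the 37 and in 18.1% of all genes. So most genes below 1 in numbers 2 and 3 were above 1 in number 1, among collagen genes and among all genes alike. The median collagen ratio was 0.965 in number 1, 0.759 in number 2 and 0.784 in number 3.

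**Figure D4:**
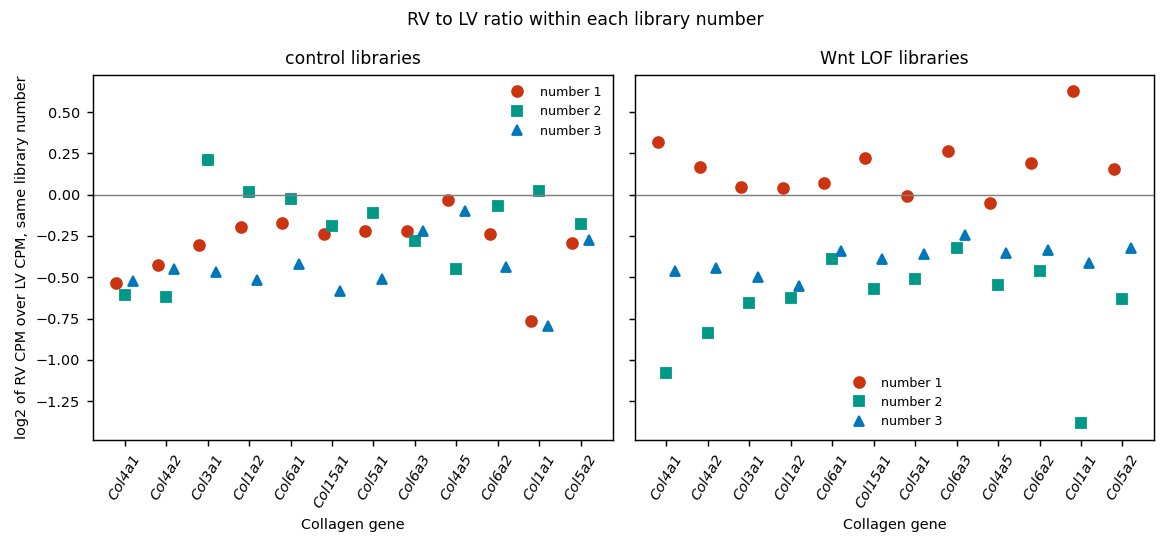
Points give the log2 ratio of RV CPM to LV CPM (y axis) within each library number for the 12 collagen genes of highest mean CPM (x axis), in control libraries (left) and Wnt LOF libraries (right). In Wnt LOF, numbers 2 and 3 are below 0 for all 12 genes and number 1 is above 0 for 10 of them, and in control libraries Col4a1 and Col4a2 are below 0 in all 3 numbers.

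Leaving out the libraries labelled Wnt LOF LV 1 and Wnt LOF RV 1, which carried the Wif1 level of the other ventricle, moved these values. The median log2 fold change over the 38 collagen genes then tested was -0.42, and 17 had an unadjusted p under 0.05, all lower in the RV (8.86% of all genes in either direction). edgeR's planned model still called no collagen gene (0.0127% of all genes). Col5a3 reached -0.79 (SE 0.13), Col8a1 -0.96 (SE 0.20) and Col4a1 -0.74 (SE 0.20) on the log2 scale. Fitted on the remaining Wnt LOF libraries alone with the number as a block, a further fit added with the data in view, edgeR called 6 collagen genes lower in the RV (1.6% of all genes). Col8a1 fell by 0.99 (SE 0.16, edgeR adjusted p 0.00998), Col5a3 by 0.78 (SE 0.13, adjusted p 0.0118) and Col4a1 by 0.76 (SE 0.16, adjusted p 0.0313). The others were Col1a2, Col3a1 and Col4a2, which fell by 0.58, 0.57 and 0.63. With the libraries numbered 1 kept, that block fit called 0 (0.00669% of all genes) and had 9 at an unadjusted p under 0.05 (6.16%). The libraries kept were 2 per ventricle, so the result rests on 2 ratios per gene.

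Wnt LOF itself left no collagen difference that passed a test in either ventricle. In the LV, 11 of the 37 tested genes were below 0 (50.9% of all genes were) and 26 above, with a median log2 fold change of 0.09 against -0.00 for all genes. edgeR called 0 collagen genes (0% of all genes) and found 2 at an unadjusted p under 0.05 (2.85%), both higher (1.43%), and DESeq2 called 0 and found 1 (2.08%). Without control LV 2 edgeR found 0 at that p in the LV. Without both Wnt LOF libraries numbered 1 it found 5 (2.26% of all genes), all higher in Wnt LOF. On the log2 scale they were Col5a1 at 0.31 (SE 0.10), Col3a1 at 0.36 (SE 0.14), Col5a3 at 0.29 (SE 0.11), Col1a2 at 0.30 (SE 0.13) and Col13a1 at 0.48 (SE 0.22). In the RV, 16 of 37 were below 0 (49.7% of all genes were) and 21 above, with a median of 0.05, and edgeR called 0 (0%) and found 1 at an unadjusted p under 0.05 (2.7%), and DESeq2 called 0 and found 1 (1.96%). The edgeR count in the RV was 0 without control RV 1 or without Wnt LOF RV 3, and 3 without control RV 2 or without Wnt LOF RV 2. For fits with a single library left out, the shares of all genes are not given here, so these counts have no background beside them. In the authors' deposited tables, which list 34 collagen genes for each ventricle, the smallest adjusted p over all 14179 listed genes was 0.841 in the LV and 0.918 in the RV.

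Among the abundant genes in the LV, Col3a1 was at 557, 497 and 555 CPM in control and 537, 715 and 666 CPM in Wnt LOF, a mean of 536 ± 33.9 against 639 ± 92 CPM (SD, n = 3). The Wnt LOF libraries numbered 2 and 3 were above every control library and the one labelled 1 lay among them (log2 fold change 0.25 (SE 0.14)). Col1a2 was at 219 ± 24.5 CPM in control and 255 ± 24.3 CPM in Wnt LOF (SD, n = 3), with a log2 fold change of 0.22 (SE 0.13). Col4a1 had nearly equal means, 1031 ± 146 and 1032 ± 280.1 CPM (SD, n = 3). Its Wnt LOF libraries spread so widely that the log2 fold change of 0.00 (SE 0.22) took either sign when single libraries were left out. Col4a2 was at 699 ± 91.9 and 728 ± 157 CPM (SD, n = 3), with a log2 fold change of 0.06 (SE 0.18) that also took either sign.

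The genes with the smallest unadjusted p in the LV were Col16a1 and Col13a1. Col16a1 was at 22.6, 19.5 and 18.8 CPM in control and 29.4, 25.8 and 21.6 CPM in Wnt LOF (log2 fold change 0.33 (SE 0.13), edgeR p 0.0271, adjusted p 0.9994). The highest control library lay above the lowest Wnt LOF library, so the groups overlapped. Without the libraries labelled Wnt LOF LV 1 and Wnt LOF RV 1 its log2 fold change was 0.22 (SE 0.14). Col13a1 was at 2.16, 2.32 and 2.42 CPM in control and 3.38, 3.62 and 2.80 CPM in Wnt LOF, the single collagen gene that was higher in every Wnt LOF LV library (3.95% of all genes), with a log2 fold change of 0.51 (SE 0.21), or 0.48 (SE 0.22) without both Wnt LOF libraries numbered 1. No collagen gene was lower in all of them (3.94%). The authors' deposited table gave log2 fold changes of 0.37 for Col16a1 and 0.54 for Col13a1 in the LV, with an adjusted p of 0.841 for both.

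In the RV, Col12a1, a FACIT collagen of tendon and other dense tissue, had the smallest unadjusted p (edgeR p 0.0279, adjusted p 0.99996). It stood at 7.91, 4.37 and 4.24 CPM in control and 2.72, 4.15 and 2.49 CPM in Wnt LOF, a log2 fold change of -0.83 (SE 0.33). The groups were separated only by the distance from 4.24 to 4.15 CPM, and the control RV library numbered 1 was far above the rest. Without both Wnt LOF libraries numbered 1 the log2 fold change of Col12a1 was -0.73 (SE 0.41) (edgeR p 0.100). Col9a3, a FACIT collagen of cartilage, was at 0.557, 0.728 and 0.848 CPM in control RV and 0.610, 0.180 and 0.319 CPM in Wnt LOF RV, overlapping through the library labelled 1 (log2 fold change -0.90 (SE 0.45)). Without both libraries numbered 1 its groups did not overlap, with 2 Wnt LOF RV libraries left. Its log2 fold change of -1.48 (SE 0.52) was then the single one of a collagen gene in the RV with an unadjusted p under 0.05 (edgeR p 0.0152, adjusted p 0.990, 4.65% of all genes). Col7a1, the anchoring fibril collagen, was also lower in every Wnt LOF RV library (3.94% of all genes were), at 2.12, 2.25 and 2.28 CPM in control and 1.94, 1.98 and 1.79 CPM in Wnt LOF (log2 fold change -0.22 (SE 0.21)). Col5a1 was the single gene higher in every Wnt LOF RV library (3.61% of all genes), at 104, 106 and 101 CPM in control and 119.6, 113 and 119 CPM in Wnt LOF (log2 fold change 0.18 (SE 0.11)). Col4a1 and Col3a1 overlapped, with log2 fold changes of 0.13 (SE 0.22) and 0.05 (SE 0.14). The summed collagen level was 2904 ± 12.9 CPM in control and 3134 ± 427 CPM in Wnt LOF (SD, n = 3), and the 3 control libraries fell inside the Wnt LOF range. Without both Wnt LOF libraries numbered 1 the RV median was -0.05, with 23 of 38 genes below 0, and the LV median was 0.16, with 5 genes at an unadjusted p under 0.05 (2.26% of all genes).

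**Figure D5:**
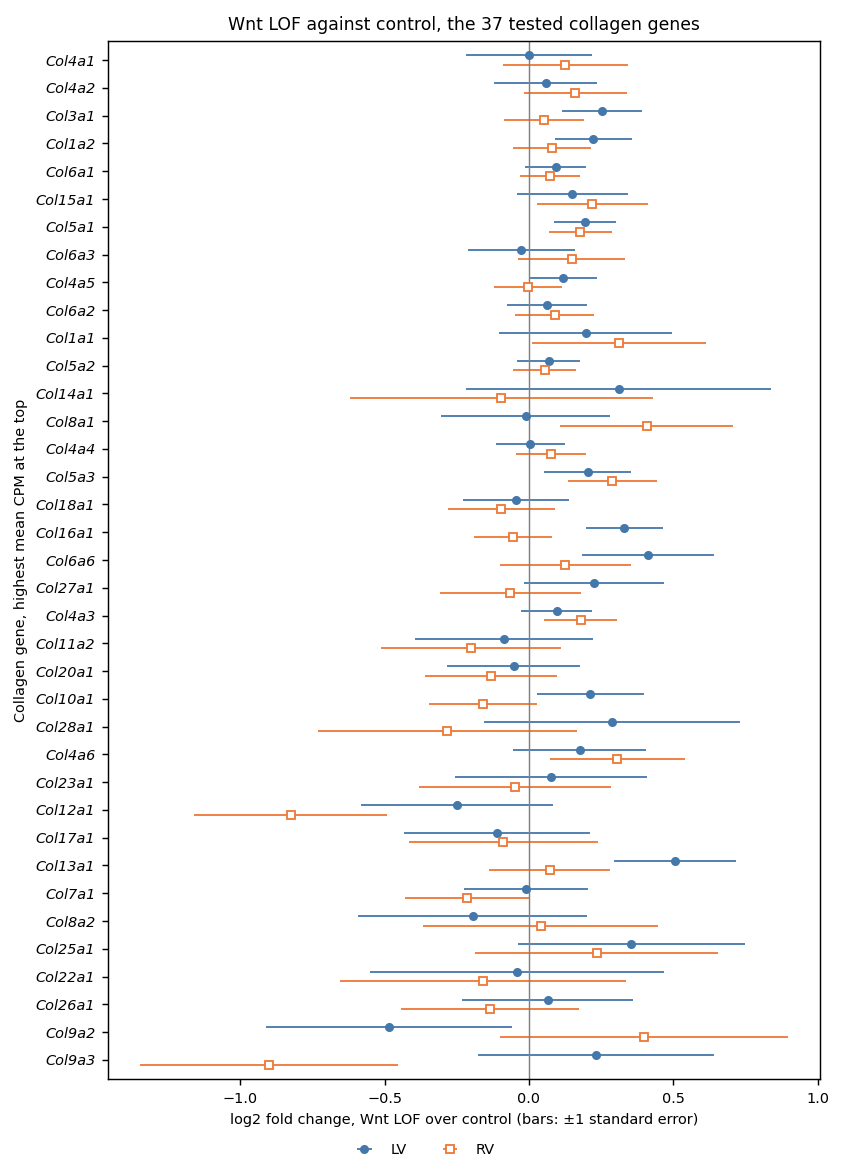
Points give the log2 fold change of Wnt LOF over control (x axis) with bars of ±1 standard error for the 37 tested collagen genes (y axis, highest mean CPM at the top), in the LV (filled circles) and the RV (open squares). Most bars of the abundant genes reach or cross 0, Col12a1 in the RV lies at -0.83 and Col13a1 in the LV at 0.51, and no point is called at an adjusted p under 0.05.

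The difference between the ventricles in the effect of Wnt LOF, which is the question in the series title, was tested as an interaction. No collagen gene was called by edgeR (0% of all genes), none had an unadjusted p under 0.05 (2.01% of all genes, 0.962% as lower and 1.05% as higher), and DESeq2 also found none at that level (1.39%). The median was -0.08, with 23 of 37 genes below 0. Col16a1 had the smallest p, with an interaction of -0.39 (SE 0.19) on the log2 scale (edgeR p 0.0623, adjusted p 0.9997). Without both Wnt LOF libraries numbered 1 it was -0.34 (SE 0.20) (edgeR p 0.113). Over all 12 libraries the interaction was 0.13 (SE 0.31) for Col4a1, 0.09 (SE 0.22) for Col5a3 and 0.42 (SE 0.42) for Col8a1, each smaller than or about equal to its error. Without both Wnt LOF libraries numbered 1 these 3 changed sign, to -0.20 (SE 0.26), -0.23 (SE 0.17) and -0.18 (SE 0.26), the median was -0.16, and 1 gene, Col9a3, had an unadjusted p under 0.05 (-1.78 (SE 0.68) on the log2 scale, edgeR p 0.0225, 1.84% of all genes). The count at that p was 3 with the replicate block within genotype (4.09% of all genes) and 1 with the common block (2.55%). It was 2 with no filter on low counts, and 0 to 2 with single libraries left out (2 without Wnt LOF RV 1 and 2 without Wnt LOF RV 2). Shares of all genes are not given here for the fits without that filter or with single libraries left out. None of the collagen genes counted was called. With 3 libraries a group, these values do not show that the ventricle difference is the same in both genotypes.

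Some pairs of chains from the same molecule varied less in their ratio than in their levels, and others did not. Per length, the ratio of Col4a1 to Col4a2, which assemble into the same trimer, was 1.21 to 1.49 over the 12 libraries. Its coefficient of variation was 5.42%, while Col4a1 and Col4a2 themselves varied by 25.3% and 22.0%. The library labelled Wnt LOF LV 1, low in both genes, had a ratio of 1.27, and the lowest ratio was in Wnt LOF RV 2. The 2 genes lie head to head, and their exons share 22 bases on opposite strands. Since the strand setting of the counting is not given in the sources used here, reads in that overlap cannot be told apart. The ratio of Col6a1 to Col6a2 was 1.42 to 1.74 (coefficient of variation 5.70%) and that of Col5a1 to Col5a2 1.17 to 1.47 (8.32%), each below the variation of both its genes. The ratio of Col6a3 to Col6a1 was 0.245 to 0.372 (13.3%), which exceeded the 11.3% of Col6a1 itself.

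Type I was less steady. The ratio of Col1a1 to Col1a2 was 0.257 to 0.439 (coefficient of variation 18.4%), while Col1a1 varied by 30.4% and Col1a2 by 16.7%. Its highest value was in Wnt LOF LV 2 and its lowest in the library labelled Wnt LOF LV 1. The protein holds more Col1a1 than Col1a2 chains, but the mRNA ratio lay below 1 in all 12 libraries, with a mean of 0.344, and of 0.731 with the length of all exons together. The ratio of Col3a1 to Col1a2 was 2.18 to 2.73 (7.01%). The ratio of Col4a3 to Col4a4 was 0.432 to 0.609, and that of Col4a6 to Col4a5, which lie side by side on the X chromosome, 0.0276 to 0.0593, with a coefficient of variation of 23.4% that exceeded those of both genes (19.6% and 12.9%). These points share library depth and size factors, which a ratio within a library removes. In all, 13 of the 44 collagen genes share exon bases with another annotated gene, at most 563 bases in Col4a3.

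Within groups, the spread differed widely between genes. The pooled SD of log2 CPM between libraries of a group was 0.13 for Col6a1, 0.14 for Col4a3, Col5a1 and Col5a2, 0.32 for Col4a1 and 0.42 for Col1a1. Among genes above 20 CPM it was widest for Col14a1, a FACIT collagen of fibroblasts, at 0.72. Col14a1 was at 41.3, 37 and 20.6 CPM in control LV, 48.5, 70.3 and 17.6 in control RV, 49.9, 50.8 and 22.7 in Wnt LOF LV and 45.6, 55.4 and 26.6 in Wnt LOF RV. In each group the library numbered 3, the one with Ddx3y reads, was the lowest, so sex and library number cannot be told apart for this gene, which was singled out after its values were seen.

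The genes that modify, fold, cut, cross-link, degrade and bind collagen showed smaller medians between the ventricles. Of 76 tested genes in 7 lists, edgeR called 0 in any of the 5 comparisons. In the control RV against LV, 40 were below 0, the median was -0.03 and 1 had an unadjusted p under 0.05 (4.88% of all genes), while in Wnt LOF 39 were below 0, the median was -0.01 and 1 passed (4.81%). Enzymes that hydroxylate proline and lysine had 4 of 13 below 0 in control, and folding and secretion factors 3 of 7. Processing and cross-linking enzymes had 8 of 12 below 0 (median -0.06), breakdown enzymes and inhibitors 6 of 11, receptors 4 of 8, and TGF-beta signalling 6 of 11. Fibril partners and fibrosis-linked matrix genes had 9 of 14 below 0 (median -0.14).

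A few of these genes had an unadjusted p under 0.05, and none was called. Ctgf, a matricellular gene induced by TGF-beta, was at 81, 50.0 and 44 CPM in control LV and 163, 136 and 60.2 CPM in control RV, opposite to the collagens and with overlap (log2 fold change 1.03, SE 0.39). In the RV its Wnt LOF value was -1.01 (SE 0.39) against control, which uses the same control RV libraries. For Wnt LOF against control in the RV, the log2 fold change of Fn1, which encodes fibronectin, was 0.30 (SE 0.11) and that of Itga1, a collagen-binding integrin chain, 0.20 (SE 0.08). Itga1 also had an interaction of 0.24 (SE 0.11), and Tgfbr1 had -0.17 (SE 0.08) between RV and LV in Wnt LOF.

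Markers of the cells that make collagen were read beside these values, since in tissue RNA fewer cells of a type and less RNA per cell cannot be told apart. The 8 fibroblast markers summed to 2411 to 2784 CPM in control LV and 2198 to 3377 CPM in control RV, with 5 of 8 above 0 in the comparison of RV with LV. The fibroblast sums overlapped, and their mean was higher in the RV, while the collagen sum was lower there. The 5 activated fibroblast markers overlapped as well (105 to 203 and 99 to 209 CPM), and Cthrc1, a defining marker of that state, was at 0 in 3 libraries and reached at most 0.197 CPM. The 8 endothelial markers had 7 below 0 and summed to 1097 to 1176 CPM in control LV and 1046 to 1107 CPM in control RV, with overlap. The 8 pericyte and smooth muscle markers had 5 below 0 and did not overlap, at 1970.3 to 2056 CPM against 1932 to 1958 CPM. Their part in the type IV values was not tested. The 8 cardiomyocyte markers summed to 71570.4 to 76489.8 CPM in the LV and 75200.3 to 78596 CPM in the RV, with 7 of 8 above 0. At an unadjusted p under 0.05, edgeR found 1 cardiomyocyte marker lower and 1 pericyte and smooth muscle marker lower in control RV. It also found 1 endothelial marker lower and 1 higher. Of all genes, 2.5% passed as lower and 2.38% as higher.

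In Wnt LOF hearts the endothelial sum was 995 to 1114 CPM in the LV and 957 to 1094 CPM in the RV, with 4 of 8 below 0, and the fibroblast sum was 2313 to 3144 and 2428 to 3361 CPM, with 3 of 8 below 0. The pericyte and smooth muscle sum was 1936 to 2127 and 2054 to 2213 CPM with 1 of 8 below 0. The cardiomyocyte sum did not overlap, at 70653 to 73639 CPM in the LV and 73852 to 77469.6 CPM in the RV. Of its 8 markers, 7 were above 0 and 2 were higher at an unadjusted p under 0.05 (3.22% of all genes). The activated fibroblast sum was 151 to 195 and 193 to 330.4 CPM, with 3 of 4 tested above 0. Macrophage markers had 5 of 6 above 0 in both comparisons of RV with LV, erythroid markers 5 of 5 in control and 4 of 5 in Wnt LOF, Schwann cell markers 4 of 4 in both, and epicardial and mesothelial markers 4 of 5 and 5 of 5. At an unadjusted p under 0.05, 2 Schwann cell markers were higher in control RV (2.38% of all genes) and 1 macrophage marker in Wnt LOF RV (3.22%). The erythroid sum did not overlap between the control ventricles (109.5 to 138 CPM in the LV and 164 to 247 CPM in the RV), nor did the Schwann cell sum (11.4 to 14.4 and 14.6 to 23.6 CPM). Adipocyte markers were near 0, with a sum of at most 3.36 CPM in any library. The part of these cell types in the collagen values was not tested.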

How the data were processed

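Total RNA of 12 ventricle samples was analysed from 1 table of read counts per Ensembl gene that the authors deposited. The submitters' processing notes name featureCounts, Subread and edgeR without versions. Which aligner, build and strandedness were used is not given in the sources here. The authors also deposited 2 tables of Wnt LOF against control with log2 fold changes and p-values, per the file headers, which were read only where named. The 24 other columns of per-sample values were not used. The table held 41192 lines for 40594 genes, and the 598 repeats had equal counts and were dropped.

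Groups came from the labels. Counts were tested in R 4.3.3 with edgeR 4.0.16 (TMM factors, filterByExpr, robust quasi-likelihood test, 1 mean per group over all 12 libraries, Benjamini-Hochberg over all 15494 genes tested, threshold 0.05). Standard errors were computed as the absolute log2 fold change over the square root of F. DESeq2 1.42.0, other size factors, filters and designs, and each library left out were alternatives. The scripts were tested on simulated data. CPM values use TMM factors of 0.961 to 1.04, and levels per length use the longest principal transcript.

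Named with values per library were the 12 collagen genes with the highest mean CPM, genes called, up to 3 per comparison with the smallest unadjusted p under 0.05, and genes whose groups did not overlap. From the lists of collagen-handling genes, up to 2 per comparison with an unadjusted p under 0.05 were named. A result that this rule would name is not reported here. The members and lists were chosen with earlier results of these data known. Library numbers are shared between groups in the labels. Deviations from the group mean correlated between LV and RV libraries of the same number at 0.411, 0.290 and 0.517 in control and 0.191, 0.197 and 0.594 in Wnt LOF, all above 0.1, so numbers were taken as pairs between ventricles. In Wnt LOF, LV number 1 correlated slightly more with RV number 2 (0.201), and LV number 2 correlated with RV number 1 at 0.133. Both values also exceed 0.1, so these correlations alone do not tell how the Wnt LOF numbers 1 and 2 pair. Control LV 2 correlated more with Wnt LOF LV 1 (0.321) than with control RV 2, so that pair is in doubt. Between genotypes the numbers did not all correlate above 0.1.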

Additional observations from a re-analysis of the deposited data

How the results depend on the processing

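No collagen gene was called with another normalization, filter, tool or design over all libraries, or with any single library left out, in any of the 5 comparisons. Fits with the replicate block over all libraries, common or within genotype, also called 0, with medians of -0.20 and -0.19 for control and -0.26 for both in Wnt LOF between RV and LV. Fits of 1 genotype with the block, added after the data were seen, called 5 collagen genes in control (2.19% of all genes). There edgeR found 16 at an unadjusted p under 0.05 (14.7% of all genes). Without both control libraries numbered 2, 4 were called (0.447%) and 18 had such a p (12.9%), with a median of -0.30. In Wnt LOF without both libraries numbered 1, 6 were called (1.6%) and 20 had such a p (14.1%). For RV against LV in Wnt LOF, 14 collagen genes had an unadjusted p under 0.05 in edgeR with total counts. Without both Wnt LOF libraries numbered 1 the count was 17 (8.86% of all genes), with a median of -0.42. Leaving out the library labelled control LV 2 as well kept 17 (8.21%) and that median. With single libraries left out, the count at that p ranged from 3 (without Wnt LOF RV 2) to 15 (without Wnt LOF LV 1) in Wnt LOF. In control it ranged from 3 (without control LV 3) to 10. Shares of all genes are not given here for total counts or for single libraries left out. The control median lay between -0.26, when control RV 2 was left out, and -0.12, when control RV 3 was. Genes of small difference changed sign. In Wnt LOF against control in the LV, Col4a1 was -0.0011 with RLE factors and with DESeq2. In the RV, without both Wnt LOF libraries numbered 1, Col1a2 was -0.0595 and Col3a1 -0.0414, and -0.0595 and -0.0415 without control LV 2 as well. Leaving out single libraries gave ranges of -0.14 to 0.21 for Col4a1 and -0.0489 to 0.23 for Col4a2 in the LV, -0.0596 to 0.21 for Col1a2 and -0.0557 to 0.22 for Col3a1 in the RV, and -0.33 to 0.0777 for Col6a3 between RV and LV in Wnt LOF. The mean summed level of control RV was 2876.2 ± 75.8 CPM (SD, n = 3) with total counts. The cause of these changes was not tested. Total counts of at most 19173391 per library limit the genes near 1 CPM and below.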
